A study of Mus musculus with 8 samples.

Results

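Genes whose products act against viruses, or regulate such products, were followed through the LPS response of miR-155 knockout (KO) and wild-type (WT) dendritic cells: Rsad2, Rtp4, Isg15, Usp18, Bst2, Ifi44, Cmpk2, Isg20 and Herc6. The 9 genes were chosen with earlier results of these data known. Their probes were taken by name, as all array probes annotated with one of these gene symbols, which gave 16 of 41174 probes and 9 of 27398 gene names. All 16 probes and all 9 genes passed the filter on dim probes, which kept 15401 genes. The cells came from bone marrow of male C57BL/6Jax mice that lacked miR-155 or were WT, grown for 7 days with GM-CSF, a myeloid growth factor, at 40 ng/mL. The 4 groups, of 2 arrays each, were KO after 16 h in 100 ng/mL lipopolysaccharide (LPS, a bacterial cell wall component sensed by TLR4), WT after the same LPS treatment, KO without stimulation and WT without stimulation. Dendritic cells (DC) were sorted as CD86+ cells from LPS cultures and as CD86- cells from unstimulated cultures, so an LPS difference is also a difference between sort gates, and these cannot be told apart. The age of the mice and the origin of the replicates from separate animals or cultures are not given in the labels. The p-values rest only on the spread between arrays of the same group, pooled over the 4 groups and moderated over all genes. That spread may be technical.

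These genes belong to the type I interferon response. In DC, LPS signals through TLR4 and the adaptor TRIF to the transcription factor IRF3, which induces interferon beta; secreted interferon then acts through its receptor and a STAT factor complex on genes whose promoters carry the interferon-stimulated response element (ISRE). Some of the products block steps of viral replication directly, and others form the ISG15 system, in which a ubiquitin-like protein is attached to other proteins and taken off again. miR-155 is itself induced by LPS in myeloid cells. Its mature strand, from RefSeq (GRCm38.p6, chr16:84714143-84714165, plus strand), is shown because it is what the KO cells lack, with the seed (bases 2 to 8) in capitals.
mmu-miR-155-5p: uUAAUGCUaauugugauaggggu
The deletion could not be checked on these arrays, where 0 probes carry the name of miR-155 or its host transcript.

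The promoter table from RefSeq (GRCm38.p6; 250 bases before to 50 after each gene start) matched 7 of the 9 genes; Rtp4 and Usp18 had no entry. The ISRE core was searched as GAAANNGAAA on both strands, where N is any base and overlapping matches count separately. It was found in 3 of the 7 genes, Rsad2, Isg15 and Bst2, and in 3.99% of the 27025 genes in the table (3.44% of its 32851 promoters, since a gene can have several). Ifi44, Cmpk2, Isg20 and Herc6 had no match, and were also higher with LPS (below). The 250 bases before the start of the 3 genes with a match are shown because they hold it, with ISRE matches in capitals and the letters running in the direction of the gene. All 3 genes lie on the minus strand, Rsad2 at chr12:26456453-26456702, Isg15 at chr4:156200819-156201068 and Bst2 at chr8:71537473-71537722.
Rsad2: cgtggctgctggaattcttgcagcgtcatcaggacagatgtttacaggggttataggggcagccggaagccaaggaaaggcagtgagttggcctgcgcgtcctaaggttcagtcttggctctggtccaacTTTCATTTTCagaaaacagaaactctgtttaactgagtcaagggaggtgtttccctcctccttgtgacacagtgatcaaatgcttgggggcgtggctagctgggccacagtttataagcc
Isg15: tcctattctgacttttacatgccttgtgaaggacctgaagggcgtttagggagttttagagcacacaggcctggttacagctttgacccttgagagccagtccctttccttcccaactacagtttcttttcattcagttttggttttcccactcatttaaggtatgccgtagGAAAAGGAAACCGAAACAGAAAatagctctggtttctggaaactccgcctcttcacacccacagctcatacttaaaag
Bst2: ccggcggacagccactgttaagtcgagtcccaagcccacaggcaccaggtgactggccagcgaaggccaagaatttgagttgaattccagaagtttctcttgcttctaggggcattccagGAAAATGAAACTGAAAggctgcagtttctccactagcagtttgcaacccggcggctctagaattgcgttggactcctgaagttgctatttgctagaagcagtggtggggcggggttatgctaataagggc
Counted in bases from the gene start, Rsad2 had 1 match, on the opposite strand, at -120. Isg15 had 3 overlapping matches, at -78, -72 and -66, and Bst2 had 2 overlapping matches, at -130 and -124. A match is a run of letters in this window and no evidence of binding. Rsad2 and Cmpk2 are neighbours on chromosome 12, with 0 genes between them in the RefSeq list and their starts 12761 bases apart on opposite strands.

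The probes are 60 bases long, and their positions are given on mm9, the build in the array files. Exon and UTR annotation of that build was not used here. Of these probes, 3 cover more of the genome than their own length and so span a splice junction. They are shown because they read spliced transcripts of 2 genes described below.
Rsad2 A_51_P505132 (chr12:27135585-27138886, minus strand): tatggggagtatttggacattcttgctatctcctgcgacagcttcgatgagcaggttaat
Rsad2 A_51_P505134 (chr12:27130424-27133462, minus strand): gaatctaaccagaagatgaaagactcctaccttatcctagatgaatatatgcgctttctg
Herc6 A_52_P679860 (chr6:57612406-57612719, plus strand): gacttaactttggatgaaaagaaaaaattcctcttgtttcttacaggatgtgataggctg
The other genes were read at chr4:155573922-155573981 (Isg15), chr16:23613668-23613727 (Rtp4), chr6:121220513-121220572 (Usp18), chr8:74058603-74058662 (Bst2), chr3:151394035-151394094 (Ifi44), chr12:27164119-27164178 (Cmpk2) and chr7:86061478-86061537 (Isg20). Where a gene had several probes, the brightest one was used, which for Rsad2 was A_52_P670026 at chr12:27127859-27127918.

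Between 50.8% and 58.3% of spots on an array were well above background, and 0 spots were saturated. All levels below are scaled log2 signals, the log2 of the array's processed signal minus its 75th percentile, so that 0 is the 75th percentile of an array. Levels of different probes are not comparable with each other. The 8 DC markers (such as Itgax and H2-Ab1) were well above background on both arrays of all 4 groups. Their summed signal was 1222 to 1407 times the array's 75th percentile in KO LPS, 1031 to 1377 in WT LPS, 944 to 1052 in unstimulated KO and 850 to 1100 in unstimulated WT arrays. Slide 1 carried both unstimulated WT arrays, unstimulated KO replicate 2 and WT LPS replicate 2, and slide 2 carried the other 4 arrays, so genotype was only partly balanced over slides within each state.

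**Figure D1:**
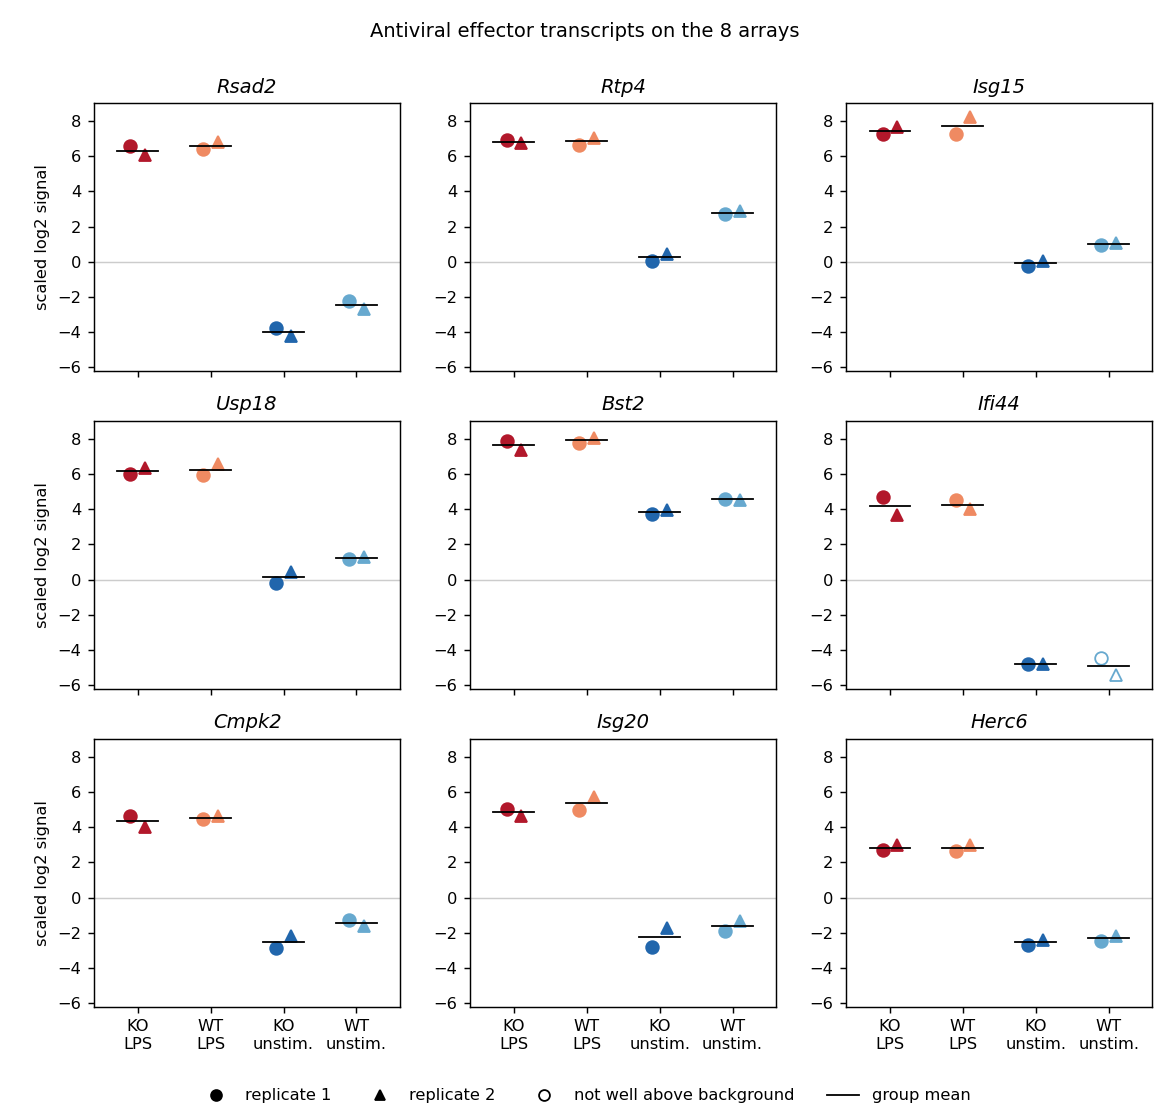
Scaled log2 signal (y axis, 0 = the array's 75th percentile) of the 9 genes on each of the 8 arrays, with the group mean as a line; open symbols were not well above background. The LPS groups overlap in every panel, and both unstimulated KO arrays lie below both unstimulated WT arrays for Rsad2, Rtp4, Isg15, Usp18, Bst2 and Cmpk2.

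LPS raised all 9 genes in both genotypes. The log2 difference between LPS and unstimulated cells had a median of 6.87 in KO (range 3.79 to 10.32) and 5.99 in WT (range 3.35 to 9.19), against medians over all genes tested of 0.05 in KO and 0.00 in WT. The highest WT value is the fitted one of Ifi44, which was not above background in unstimulated WT cells. In RNA from bulk cells, a change in the number of cells of a type and a change in RNA per cell cannot be told apart. All 9 genes passed the test as higher (limma, adjusted p under 0.05), where 10.4% of 15400 genes did in KO and 9.48% of 15401 genes did in WT. Because the genes were chosen with earlier results of these data known, this count describes them and is no test of the group. All 16 probes were called higher in both genotypes as well. Of these, 12 in KO and 11 in WT were well above background in both states. The others in KO passed the filter only through the LPS groups, where they are high, so their calls add no support. They are also among the values of the alternatives counted next. The calls held in 169 of 169 values under the alternatives in KO and in 169 of 169 in WT, including each left-out array and the fits within a slide, where the median was 7.21 in KO (slide 2) and 6.09 in WT (slide 1). With normexp background correction and quantile normalization the medians were 6.07 in KO and 5.07 in WT, so the size of the differences depends on this choice.

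Among the enzymes, Rsad2 encodes viperin, a radical SAM enzyme that turns CTP into a chain-terminating nucleotide. Its scaled log2 signal was 6.56 and 6.08 in KO LPS, 6.39 and 6.78 in WT LPS, -3.78 and -4.21 in unstimulated KO and -2.21 and -2.66 in unstimulated WT cells. The LPS arrays of both genotypes overlapped, and the unstimulated KO arrays lay below the unstimulated WT arrays. The LPS difference was 10.32 ± 0.33 (SE, n = 2 per group) in KO, adjusted p = 2.43e-05, and 9.02 ± 0.33 in WT, adjusted p = 5.31e-05. Both junction-spanning Rsad2 probes printed above were well above background on the LPS arrays but on 0 of the 4 unstimulated ones, so they give only bounds. As processed here, these were at least 613-fold in KO and 430-fold in WT for A_51_P505132, and at least 472-fold in KO and 299-fold in WT for A_51_P505134. Cmpk2, the neighbouring gene, encodes a mitochondrial nucleoside monophosphate kinase that supplies CTP precursors. Its signal was 4.64 and 4.01 in KO LPS, 4.45 and 4.64 in WT LPS, -2.89 and -2.21 in unstimulated KO and -1.30 and -1.59 in unstimulated WT cells. Cmpk2 was higher with LPS by 6.87 ± 0.35 in KO and by 5.99 ± 0.35 in WT (SE, n = 2 per group). Isg20 encodes an exonuclease that degrades single-stranded RNA. Its signal was 5.01 and 4.66 in KO LPS, 4.99 and 5.71 in WT LPS, -2.78 and -1.73 in unstimulated KO and -1.90 and -1.32 in unstimulated WT cells, so that the genotypes overlapped in both states. The LPS difference of Isg20 was 7.10 ± 0.45 in KO and 6.95 ± 0.45 in WT.

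In the ISG15 system, Isg15 itself encodes the ubiquitin-like modifier. Its signal was 7.24 and 7.66 in KO LPS, 7.26 and 8.22 in WT LPS, -0.23 and 0.05 in unstimulated KO and 0.96 and 1.08 in unstimulated WT cells. The LPS difference was 7.54 ± 0.37 in KO (adjusted p = 0.000133) and 6.72 ± 0.37 in WT (adjusted p = 0.00027). Usp18 encodes the protease that removes ISG15 and also restrains the interferon receptor. Its signal was 5.99 and 6.36 in KO LPS, 5.92 and 6.59 in WT LPS, -0.19 and 0.45 in unstimulated KO and 1.17 and 1.30 in unstimulated WT cells, a difference with LPS of 6.04 ± 0.35 in KO and 5.02 ± 0.35 in WT. Herc6, the main ISG15 ligase of the mouse, had 2.71 and 2.96 in KO LPS, 2.63 and 2.96 in WT LPS, -2.68 and -2.42 in unstimulated KO and -2.46 and -2.19 in unstimulated WT cells. The genotypes overlapped in both states for Herc6, whose LPS difference was 5.39 ± 0.27 in KO and 5.12 ± 0.27 in WT. Of the 7 genes of the conjugation pathway, 6 were called higher with LPS in KO and 5 in WT, where 10.4% and 9.48% of all genes were. Isg15, Usp18 and Herc6 are among the 7, so these counts partly repeat their calls. Beside the 3 above, Uba7 (the activating enzyme) was higher by 3.58 in KO and 3.04 in WT, and Ube2l6 (the conjugating enzyme) by 3.72 in KO and 3.67 in WT. Trim25, a ligase for ISG15 and ubiquitin, was higher by 1.58 in KO (adjusted p = 0.0267), and its difference in WT was 1.16 (adjusted p = 0.0721); the difference between these responses was not called. Arih1 was not called, at 0.19 in KO and 0.35 in WT.

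The remaining genes act elsewhere in the cell. Bst2 encodes tetherin, a membrane protein that holds budding virions at the cell surface. It had 7.91 and 7.38 in KO LPS, 7.74 and 8.08 in WT LPS, 3.72 and 3.98 in unstimulated KO and 4.60 and 4.53 in unstimulated WT cells. Its LPS difference was the smallest of the 9, 3.79 ± 0.29 in KO and 3.35 ± 0.29 in WT. Bst2 is also a surface marker of plasmacytoid DC in the unstimulated mouse; of 9 markers of those cells, 7 were on both arrays above background in every group, Siglech was not above background in either LPS group, and Ly6d was not in the LPS groups or in unstimulated KO cells. Their summed signal was 5.81 to 6.88 times the array's 75th percentile in KO LPS, 4.68 to 6.73 in WT LPS, 4.60 to 5.89 in unstimulated KO and 4.30 to 4.86 in unstimulated WT arrays, and its part in the Bst2 result was not tested. Ifi44 encodes an interferon-induced cytoplasmic protein. Its signal was 4.69 and 3.70 in KO LPS, 4.52 and 3.999 in WT LPS, -4.82 and -4.81 in unstimulated KO and -4.45 and -5.40 in unstimulated WT cells, where 0 of 2 WT arrays were well above background. The LPS difference of Ifi44 was 9.01 ± 0.46 in KO, and in WT the gene was at least 407-fold higher (adjusted p = 0.000206). Rtp4, of a family of proteins that help receptors reach the cell surface, had 6.92 and 6.75 in KO LPS, 6.65 and 7.04 in WT LPS, 0.06 and 0.45 in unstimulated KO and 2.69 and 2.88 in unstimulated WT cells. Its LPS difference was 6.57 ± 0.28 in KO (adjusted p = 8.51e-05), a 95.3-fold change, and 4.06 ± 0.28 in WT (adjusted p = 0.000417), a 16.7-fold change.

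**Figure D2:**
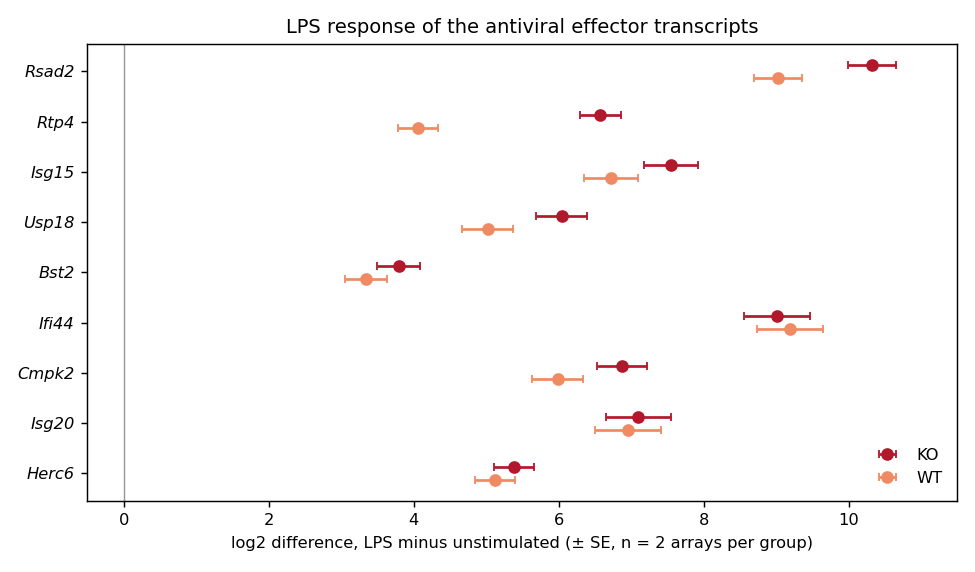
Log2 difference between LPS and unstimulated cells (x axis) of each gene in KO and WT, with the SE of the limma fit as bars (n = 2 arrays per group). The KO and WT values of Ifi44 rest on unstimulated signals near background. Rsad2 had 10.32 in KO and 9.02 in WT, Bst2 had 3.79 in KO and 3.35 in WT, and the widest gap between genotypes was that of Rtp4, at 6.57 in KO and 4.06 in WT.

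Without stimulation, Rtp4 was lower in KO than in WT cells, and it was the one gene of the 9 that passed the test. Its processed signal, before scaling between arrays, was 784 and 937 intensity units on the unstimulated KO arrays and 4374 and 3481 on the unstimulated WT arrays. The scaled log2 difference was -2.53 ± 0.28 (SE, n = 2 per group; 95% interval -3.19 to -1.87; limma, adjusted p = 0.0267), a level 5.77-fold lower in KO. Over all 15401 genes, 0.221% were called lower in this comparison and 0.240% in either direction. The call was sensitive to the design. It was kept in 8 of 10 alternatives, at values of -2.53 to -2.26, and lost with the slide as a block (-2.33, adjusted p = 0.121) and within slide 1 alone (-2.33, adjusted p = 0.762). It was also lost when any 1 of the 8 arrays was left out, at values of -2.72 to -2.33 and adjusted p from 0.073 to 0.257. The direction was the same in all of these. The nearest tested genes on both sides of Rtp4, 6 in all, were Eif4a2, Rfc4, St6gal1, Bcl6, Lpp and Cldn1, chosen after values were seen. They lie from 17 places before to 32 places after Rtp4 in gene order, and gave 0 calls, with differences of -0.32 to 0.46. With 0.240% of all genes called, 0 calls among 6 genes cannot address a part of the locus. Rtp4 and miR-155 are both on chromosome 16, with the Rtp4 probe at base 23613668 (mm9) and miR-155 at base 84714143 (GRCm38.p6, a different build). A part of the deleted locus in the Rtp4 difference was not tested.

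The other 8 genes did not pass the test between unstimulated KO and WT cells. Their estimates were -1.56 for Rsad2 (95% interval -2.34 to -0.78, adjusted p = 0.471), -1.11 for Isg15 (-1.99 to -0.23), -1.11 for Usp18 (-1.94 to -0.27), -1.10 for Cmpk2 (-1.94 to -0.27), -0.71 for Bst2 (-1.40 to -0.02), -0.65 for Isg20 (-1.72 to 0.41), -0.23 for Herc6 (-0.87 to 0.42) and 0.11 for Ifi44 (-0.97 to 1.20). The median over the 9 genes was -1.10, where that over all genes was -0.04, and 8 of the 9 estimates were below 0. An unadjusted p under 0.05 was reached by 6 of the 9 genes and by 2.56% of all genes. That count depended on single arrays and the slide: it was 2 without KO unstimulated replicate 1, 3 without either of the WT unstimulated arrays, 3 with the slide as a block and 2 within slide 1 alone. Both KO arrays lay below both WT arrays for 6 of the 9 genes and for 13.1% of all genes. The genes were read on the same 4 arrays, so these counts are not independent of one another. The Rsad2 estimate depended on the background treatment and the probe, at -0.73 with normexp and quantile normalization, -1.45 with A_51_P505134 and -0.45 with A_51_P505132, both of which are near background in unstimulated cells. The second Ifi44 probe, not above background in either unstimulated group, gave -0.83.

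**Figure D3:**
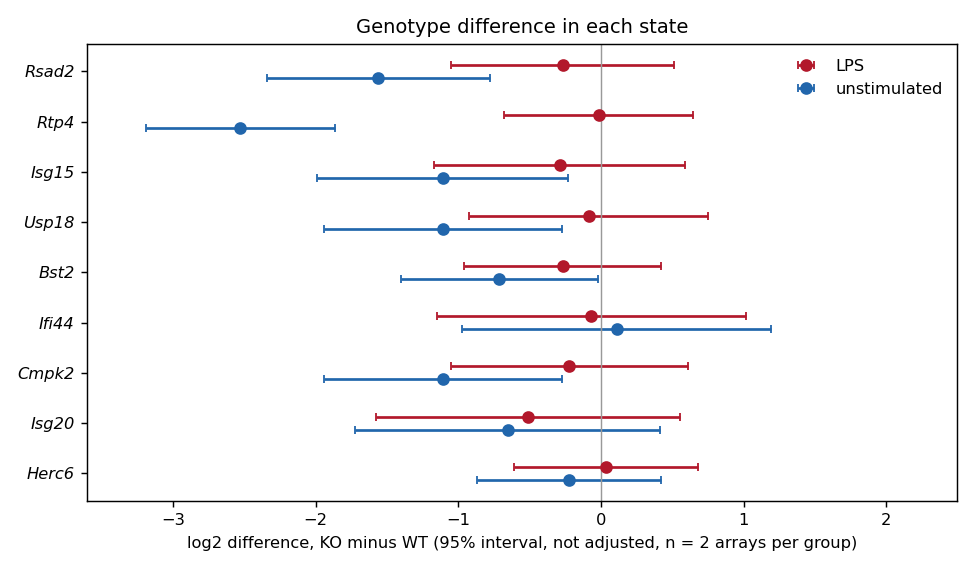
Log2 difference between KO and WT (x axis) of each gene after LPS and without stimulation, with unadjusted 95% intervals of the limma fit. The unstimulated interval of Rtp4 runs from -3.19 to -1.87, and all 9 LPS intervals include 0.

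After LPS the genotypes did not differ detectably in any of the 9 genes. The log2 differences between KO and WT ranged from -0.51 (Isg20) to 0.04 (Herc6) with a median of -0.22. By limma, 0 genes were called (0.0260% of all genes were) and 0 had an unadjusted p under 0.05 (1.21% of all genes had). The arrays of the genotypes overlapped for all 9. Over all genes, both KO arrays lay above both WT arrays for 11.4% and below both for 9.88%, so most genes overlapped too. For Rtp4 the difference was -0.02 with a 95% interval of -0.68 to 0.65, and for Rsad2 it was -0.27 with an interval of -1.05 to 0.51. Within slide 2 the 9 differences ranged from -0.33 to 0.25. The signs of several of these small differences changed between alternatives.

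**Figure D4:**
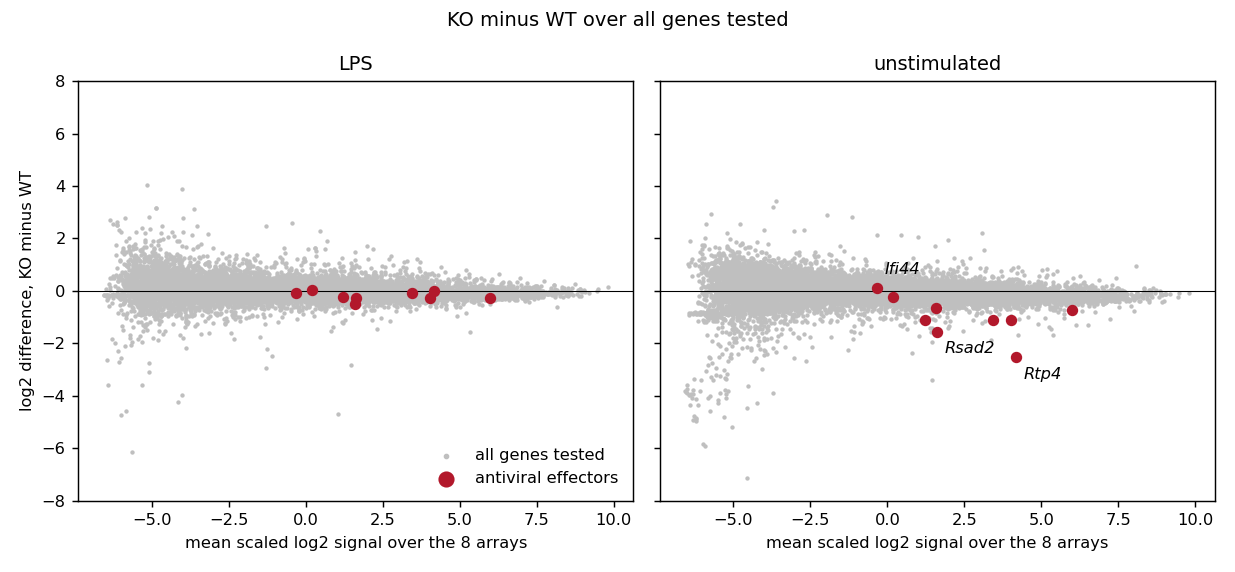
Log2 difference between KO and WT (y axis) against the mean scaled log2 signal over the 8 arrays (x axis), after LPS and without stimulation, for all genes tested (grey) and the 9 antiviral genes (red). Without stimulation Rtp4 lies at -2.53 and Rsad2 at -1.56; after LPS the 9 genes lie between -0.51 and 0.04.

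The test of the difference between the LPS responses called 0 of the 9 genes (0.0455% of all genes were called). The estimates, not called, were larger in KO by 2.51 ± 0.39 for Rtp4 on the log2 scale (95% interval 1.58 to 3.45, limma, adjusted p = 0.181). For Rsad2 the estimate was larger in KO by 1.29 ± 0.47 (interval 0.189 to 2.397). They are built from the same values as the unstimulated differences of -2.53 (Rtp4) and -1.56 (Rsad2), so they are no separate evidence. An unadjusted p under 0.05 was reached by these 2 genes, against 1.42% of all genes. The count was 1 when the first replicate of KO LPS, of WT LPS or of unstimulated WT was left out, 4 without WT LPS replicate 2, 3 with the slide as a block and 1 with median scaling or the mean of all probes. The median difference of responses was 0.82, against 0.05 over all genes. Averaged over both states, KO minus WT had a median of -0.60 over the 9 genes and 0 calls (0.143% of all genes were called), with Rtp4 at -1.27 (adjusted p = 0.154).

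Of the 16 probes, 12 in KO and 11 in WT were well above background on at least 1 array in both states, and their log2 differences with LPS ranged from 3.79 to 10.32 in KO and from 3.35 to 9.02 in WT. The other probes have only bounds. The 2 Isg20 probes gave 7.10 and 6.64 in KO and 6.95 and 6.66 in WT, and the 2 Cmpk2 probes 6.87 and 6.94 in KO and 5.99 and 6.08 in WT. The Herc6 probes differed more, with 5.39 for the junction probe and 4.11 for A_52_P64514 in KO, and 5.12 for the junction probe and 4.03 for A_52_P64514 in WT.

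**Figure D5:**
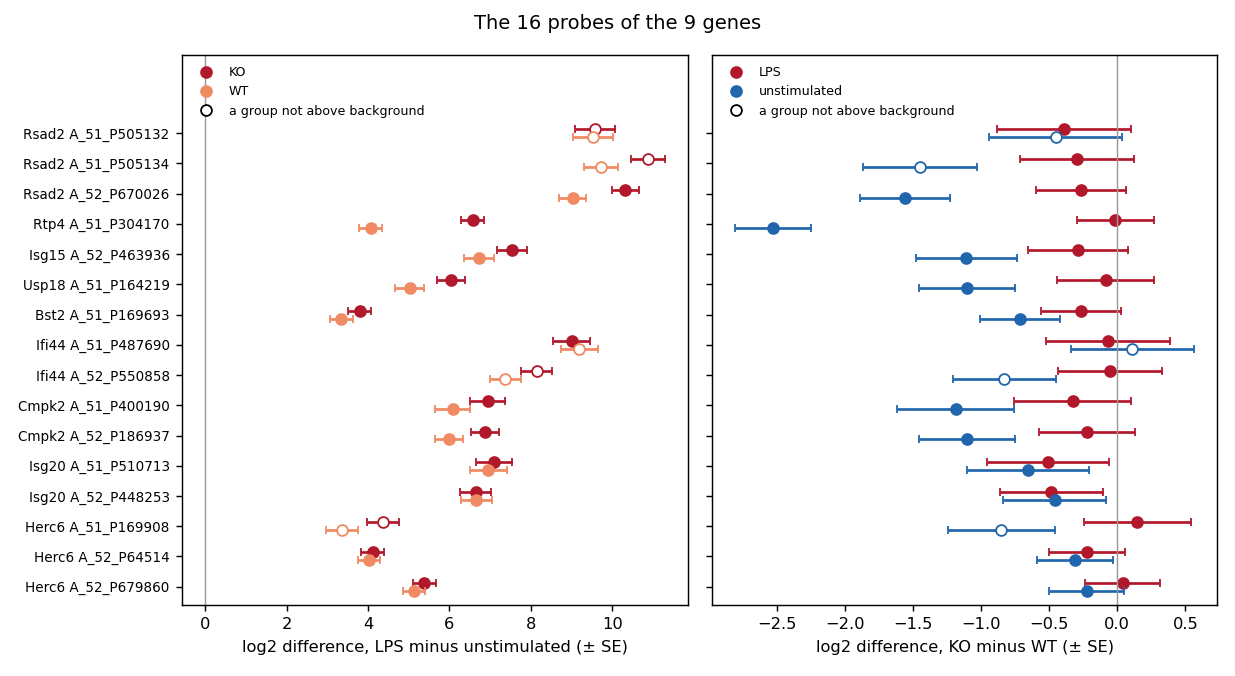
Left, log2 difference between LPS and unstimulated cells (x axis) for each of the 16 probes in KO and WT; right, log2 difference between KO and WT (x axis) after LPS and without stimulation. Bars are the SE of the limma fit and open symbols mark a group in which 0 of 2 arrays were above background. On the left the filled symbols lie between 3.79 and 10.32 in KO and between 3.35 and 9.02 in WT, and the size of an open one rests on signal near background.

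Of the 15 genes that induce interferon or carry its signal, 8 were called higher with LPS in KO and 7 in WT, and 0 were called lower; the median differences were 1.25 in KO and 1.17 in WT. Ifnb1, which encodes interferon beta, was not above background in unstimulated cells and was at least 23-fold higher with LPS in KO and 6.16-fold in WT. Irf7, the transcription factor that amplifies interferon production, was higher by 8.49 on the log2 scale in KO and 7.44 in WT. Stat2, which encodes a factor that carries the signal of the interferon receptor to the nucleus, was higher by 3.12 in KO and 2.82 in WT. The kinases that activate IRF3 and IRF7 were also higher, Ikbke by 2.27 in KO and 1.93 in WT and Tbk1 by 1.25 in KO and 1.13 in WT. The receptor chain Ifnar2 was higher by 1.34 in KO and 1.32 in WT. Irf9 was higher by 1.64 in KO (adjusted p = 0.0314), and its difference in WT was 1.17 (adjusted p = 0.0887). Not called were Ifnar1 (0.38 in KO, 0.81 in WT), Irf3 (0.18 in KO, -0.12 in WT), Jak1 (0.13 in KO, 0.09 in WT), Tyk2 (0.14 in KO, 0.17 in WT), Ticam1, which encodes TRIF (-0.15 in KO, 0.19 in WT), Ticam2 (-0.22 in KO, 1.93 in WT) and Tlr4 (-0.18 in KO, -0.22 in WT). No gene of this list was called between genotypes in either state. In unstimulated KO minus WT the median of the 15 genes was -0.09, against -0.04 over all genes, and Irf7, not called, was at -1.52.

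A list of 25 other interferon-stimulated antiviral genes had 24 that were matched and tested. All 24 were called higher with LPS in both genotypes, where 10.4% of all genes were in KO and 9.48% in WT. Their medians were 4.13 in KO and 3.73 in WT. This list, too, was chosen with earlier results of these data known. Examples are Ifit1, which binds foreign RNA (9.56 in KO, 7.88 in WT), Oasl1 (11.02 in KO, 9.54 in WT), Ifit2 (7.95 in KO, 6.85 in WT) and Oasl2 (6.94 in KO, 5.07 in WT). Between unstimulated KO and WT cells their median was -0.87 and 1 was called, where 0.240% of all genes were. It was Xaf1, a proapoptotic interferon-induced gene, at -3.41 ± 0.27 (limma, adjusted p = 0.0096). The estimate for Xaf1 after LPS was -2.82 (adjusted p = 0.056), and its average over both states was called, at -3.12 (adjusted p = 0.0146). Of 12 relatives of the 9 genes by protein family, 8 were tested and 1 was called higher, Usp25, by 1.91 in KO and 1.81 in WT. A count of 1 in 8 is near the share over all genes, 10.4% in KO and 9.48% in WT. The medians of the relatives were 0.19 in KO and 0.16 in WT. Herc2, Herc3 and Isg20l2, also among the 4 with the smallest adjusted p in KO, were not called, at 0.27, 0.84 and -0.22 in KO. Rtp1, Rtp2, Rtp3 and Ifi44l did not pass the filter.

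Markers of some other cells moved with LPS as well. Of 7 stromal markers, 4 were above background on both arrays of each LPS group, and their summed signal was 2.21 to 12.4 times the array's 75th percentile in KO LPS, 2.26 to 6.02 in WT LPS, 0.143 to 0.159 in unstimulated KO and 0.162 to 0.237 in unstimulated WT arrays. Col1a1, Col3a1 and Pdgfra were not above background in the LPS groups. Of 8 macrophage markers, 4 were called lower with LPS in KO and 4 in WT, and 1 was called higher in KO; their median log2 differences were -1.61 in KO and -1.75 in WT. Their summed signal overlapped between states, at 149 to 255 times the 75th percentile in KO LPS, 172 to 200 in WT LPS, 163 to 243 in unstimulated KO and 170.1 to 268 in unstimulated WT arrays. The summed signal of 5 B-cell markers was 0.222 to 0.316 in KO LPS, 0.124 to 0.245 in WT LPS, 0.736 to 4.70 in unstimulated KO and 0.878 to 4.97 in unstimulated WT arrays, with Cd79a and Ms4a1 not above background in any group. Of 3 B-cell markers tested, 1 was called higher and 1 lower with LPS in KO, and 0 higher and 1 lower in WT. The summed signals of 6 neutrophil and 5 T-cell markers overlapped between states in both genotypes. Of 4 neutrophil markers tested, 1 was called higher with LPS in each genotype. Of 3 T-cell markers tested, 1 was called higher and 1 lower in each genotype. The part of these cells in the LPS results was not tested.

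By likeness of pattern, measured as the root mean square difference of centred scaled log2 signals over the 8 arrays, the genes nearest to the mean profile of the 9 were Enpp2 (0.209), Pydc4 (0.247), Il23r (0.267), H2-Q8 (0.299) and Lox (0.307). For single genes the nearest were Igtp for Bst2 (0.129), Mx2 for Usp18 (0.163), Lox for Isg15 (0.190), Pydc4 for Cmpk2 (0.231), Susd2 for Isg20 (0.280), Phf11 for Herc6 (0.292), Oasl1 for Rsad2 (0.403), Oas2 for Rtp4 (0.427) and Apol9b for Ifi44 (0.461). Enpp2, Pydc4, Il23r, Lox and Susd2 were above background on 0 of 2 arrays in both unstimulated groups, and Apol9b on 1 of 2 in each, so these genes passed the filter through the LPS groups and the sizes of their profiles and distances rest on signal near background. H2-Q8, Igtp, Mx2, Phf11, Oasl1 and Oas2 were above background on all 8 arrays.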

How the data were processed

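RNA from sorted DC was hybridised to 8 one-colour Agilent arrays. Signals were read from the scans by the authors with Feature Extraction 10.5.1.1 (Agilent), per the file headers. The deposited processed signal is a background-subtracted intensity that no step had put on a common scale. Deposited flags (other unit, 0 or 1) mark each spot as well above background or not. Values of the deposited series matrix are log2 values, found here to be the log2 processed signal minus a constant per array. Further upstream steps are not given in the sources used here. Outlying spots (120 to 174 per array) were left out, log2 signals were scaled to the array's 75th percentile, and a probe was kept where both arrays of any group had it well above background (23739). The brightest probe stood for each gene. A model with 4 group means was fitted (limma 3.58.1, R 4.3.3 and its data.table package, version 1.17.8; 4 residual and 2.88 prior degrees of freedom), with 6 comparisons, two-sided p-values adjusted over all genes by Benjamini-Hochberg and calls at an adjusted p under 0.05. The 2 arrays per group limit the precision. For a gene not above background in a group, a lower bound is given, from the higher of the array's lowest signal well above background and the gene's own. Such a bound holds for this processing only. The fitting code was tested on simulated data. All 9 genes are named; genes of the conjugation and signalling lists are named, except 1 that is not reported here, and of the other lists the 4 with the smallest adjusted p in the LPS response of KO. The genes and the lists were chosen with earlier results of these data known. Alternatives changed the background correction, scaling, filter, probe rule, variance model, blocks and arrays used.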

Additional observations from a re-analysis of the deposited data

How the results depend on the processing

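Calls of all 9 genes in both LPS responses held under every alternative run, and 0 genes were called in KO against WT after LPS, in both states averaged or in the difference of responses under any of them. The count called in unstimulated KO against WT was 1, and 0 with the slide as a block, 0 within slide 1 alone and 0 to 0 when an array was left out. The median LPS difference moved to 6.07 in KO and 5.07 in WT with normexp and quantile normalization. The median difference of responses was 0.34 to 0.98 when an array was left out, the lowest without WT LPS replicate 1. A group left with 1 array was assumed to vary like the others.

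Small uncalled differences changed sign. In KO minus WT after LPS, Rtp4 was 0.16, Usp18 0.044 and Ifi44 0.054 with normexp, Rtp4 0.059 with quantile normalization, Herc6 -0.027 with median scaling, -0.012 with the mean of all probes and -0.22 with its probe A_52_P64514, Rtp4 0.18, Isg15 0.020 and Usp18 0.24 with the slide block, and Rtp4 0.18, Isg15 0.19 and Usp18 0.25 within slide 2. Without stimulation Ifi44 was -0.36 with the mean of all probes, -0.019 with the slide block and -0.83 with its probe A_52_P550858. Over both states Ifi44 was -0.0049 with median scaling, -0.21 with the mean of all probes, -0.11 with the slide block and -0.44 with A_52_P550858, and Herc6 0.053 with the slide block. In the difference of responses Ifi44 was 0.031 with normexp, 0.30 with the mean of all probes and 0.77 with A_52_P550858, and Isg20 -0.15 with normexp and -0.023 with its probe A_52_P448253. Leaving out arrays gave, after LPS, -0.21 to 0.18 for Rtp4, -0.77 to 0.19 for Isg15, -0.42 to 0.25 for Usp18, -0.56 to 0.43 for Ifi44, -0.54 to 0.10 for Cmpk2 and -0.12 to 0.20 for Herc6. For Ifi44 it gave -0.36 to 0.59 without stimulation, -0.22 to 0.27 over both states and -0.67 to 0.32 in the difference of responses, where Isg20 had -0.38 to 0.67. The cause was not tested.

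The labels do not say that replicate numbers mark a shared animal or day, and with the replicate number as a block the counts of the 9 genes were 9 in KO and 9 in WT for LPS, 1 without stimulation (Rtp4, adjusted p = 0.0401) and 0 elsewhere. The replicate deviations of same-numbered arrays correlated at 0.69 between the LPS groups and 0.50 between the unstimulated groups, and at 0.01 to 0.33 between states. Counts over all genes moved more. For unstimulated KO against WT they were 37, but 2 with normexp, 5 with the slide block, 13 with a variance trend, 56 without the filter, 0 within slide 1 and 0 to 26 with an array left out. For LPS they were 3208 in KO and 3106 in WT, but 441 in KO within slide 2, 1533 in WT within slide 1, and as low as 1420 in KO and 1442 in WT with an array left out. KO against WT gave 4 after LPS (0 to 7 elsewhere), 22 over both states (0 to 27 elsewhere) and 7 for the difference of responses (0 to 14 elsewhere). Without the filter the median of all genes moved to -0.35 for the WT LPS response and to -0.23 for unstimulated KO against WT, and median scaling moved that for the KO LPS response to -0.12. Signal over background limits the unstimulated values of Ifi44 and of the Rsad2 junction probes.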
